A study of Mus musculus with 12 samples.

Results

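The cytosolic ribosomal protein genes encode the protein part of the ribosomes that translate nuclear messages. They were taken by symbol: Rpl or Rps followed by a number, with an optional a, x, y or l at the end, together with Rplp0, Rplp1, Rplp2 and Rpsa. Names of the Rps6k kinases and names ending in ps were left out. The rule found 79 of the 22377 genes listed in the series, 48 of the large subunit and 31 of the small subunit. A gene counted as tested where it reached 1 FPKM (fragments scaled for transcript length and library total) in at least 4 libraries, and 77 of the 79 did. The other two, Rpl3l and Rpl39l, are described with the paralogs.

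The series sequenced poly(A)-selected RNA from mouse colon in 12 libraries, in 3 groups of 4. The FGF1 group is labelled with fibroblast growth factor 1 as its treatment, which the series' design text describes as a recombinant supplement in mice with inflammatory bowel disease. The DSS group is labelled with dextran sulfate sodium, a polymer that damages the colon epithelium of mice, and the third group is labelled control. The labels give no strain, genotype, age, dose or time, and DSS exposure of the FGF1 group is not stated. No label says that the libraries of a group came from separate animals, so p-values measure only the spread between these libraries. All values come from bulk tissue, in which fewer cells of a type and less RNA per cell cannot be told apart.

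Each ribosome carries the proteins of both subunits in fixed proportion, wrapped round ribosomal RNA, and cells make them in matched amounts. Most of their messages begin with a C followed by a run of pyrimidines, the TOP motif, through which the mTORC1 kinase pathway controls their translation. Excess or unassembled ribosomal proteins, Rpl5 and Rpl11 above all, can bind Mdm2 and raise p53. In the colon, crypt cells that divide and secretory cells that export protein are heavy users of ribosomes.

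The starts of these genes are shown first, because the TOP motif is what their messages are known to share. Of the 79 genes, 59 matched the RefSeq promoter table (GRCm38.p6), with 71 promoters of 300 bases. A TOP-like start was scored as a C within 5 bases of the annotated start followed by at least 4 pyrimidines on the gene's strand. It was present in 30 of the 71 promoters, 42.3%, and in 18.3% of all 32851 promoters in the table. The letters CCGGAAG, the core of an ETS factor site, were on either strand of 36.6% of the members' promoters and 8.86% of all promoters. AAGATGGC, the core of a YY1 site, was in 9.86% against 2.75%, and TATAAA was in 8.45% against 13.6%. Overlaps between the motifs were not removed. The sequences below run from 50 bases before the annotated start to 25 bases from it onward, on the gene's strand, with the TOP-like pyrimidine run in capitals. Rps6 and Rplp2 have long runs, Rpl12 and Rpl39 have short ones, and Rplp0 has none at its annotated start.
Rps6, chr4:86857343-86857417 on the minus strand: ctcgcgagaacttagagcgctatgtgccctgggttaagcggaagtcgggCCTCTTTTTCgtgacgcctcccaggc
Rplp2, chr7:141447601-141447675 on the plus strand: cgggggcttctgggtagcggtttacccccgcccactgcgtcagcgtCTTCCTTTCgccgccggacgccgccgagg
Rpl12, chr2:32961662-32961736 on the plus strand: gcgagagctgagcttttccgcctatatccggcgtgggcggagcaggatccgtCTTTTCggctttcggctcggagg
Rpl39, chrX:37085198-37085272 on the minus strand: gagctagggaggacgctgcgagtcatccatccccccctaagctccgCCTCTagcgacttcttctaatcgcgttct
Rplp0, chr5:115559417-115559491 on the plus strand: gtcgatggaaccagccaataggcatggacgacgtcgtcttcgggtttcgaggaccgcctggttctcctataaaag
Of the 10 members called higher in DSS below, 6 had a promoter in the table. At the start taken for each, Rpl39 and Rpl12 had the TOP-like run, and Rps13, Rpl36a, Rplp0 and Rpl37a did not. A match describes the letters at these annotated starts, and no match says only that the letters are not in the window.

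Summed over the 79 genes, ribosomal protein messages made up 12.1%, 12.1%, 10.6% and 10.9% of all listed FPKM in FGF1 libraries 1 to 4. They made up 11.7%, 9.36%, 14.5% and 12.03% in DSS libraries 1 to 4, and 9.15%, 8.37%, 10.3% and 9.21% in control libraries 1 to 4. The 4 FGF1 libraries lay above the 4 control libraries, while DSS 2 lay within the control range and DSS 3 was the highest of all 12. The share averaged 11.4% ± 0.773 in FGF1, 11.9% ± 2.10 in DSS and 9.26% ± 0.810 in control (SD, n = 4 each). The median tested member stood at 538 ± 44.7 FPKM in FGF1, 588 ± 126 FPKM in DSS and 421 ± 24.2 FPKM in control. The DSS libraries spread wider than those of either other group on both scales.

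**Figure D1:**
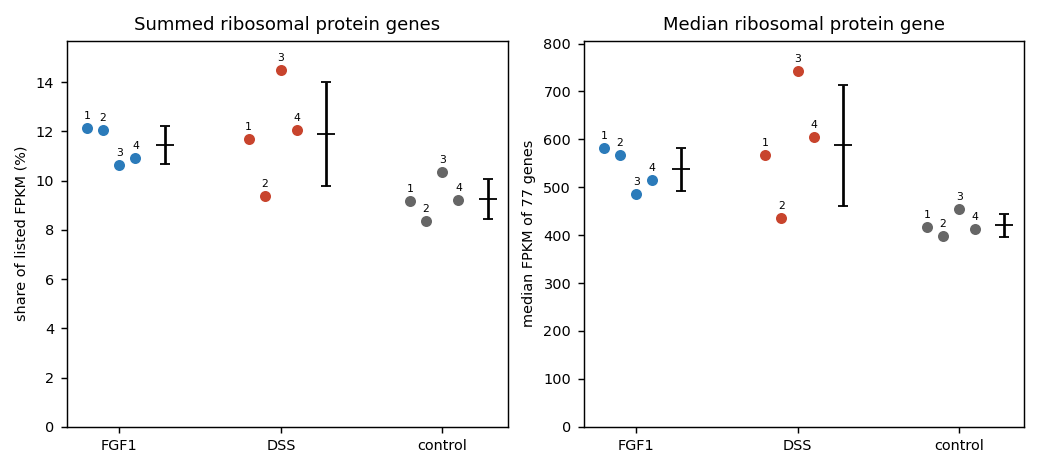
Left, the 79 ribosomal protein genes' summed FPKM as a percentage of all FPKM listed in a library. Right, the median FPKM of the 77 tested genes. Points are libraries with their replicate number, and bars are mean ± SD (n = 4 each). The FGF1 libraries sit between 10.6% and 12.1%, the DSS libraries between 9.36% and 14.5%, and the control libraries between 8.37% and 10.3%.

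The members moved up and down together from library to library. For each tested member, the log2(FPKM + 1) values in the 12 libraries were correlated with the median of the other members. The median Pearson r was 0.91, and 40 of the 77 members had an r above 0.9. These correlations describe libraries that share depth and tissue makeup, so they carry no test. DSS 3 held the highest value of all 12 libraries for 70 members, and control 2 held the lowest for 45. Within the DSS group, DSS 2 was lowest for 70 members. The large and small subunits kept step. Their summed FPKM stood at a ratio of 1.28 to 1.31 in the FGF1 libraries, 1.25 to 1.32 in the DSS libraries and 1.27 to 1.37 in the control libraries.

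**Figure D2:**
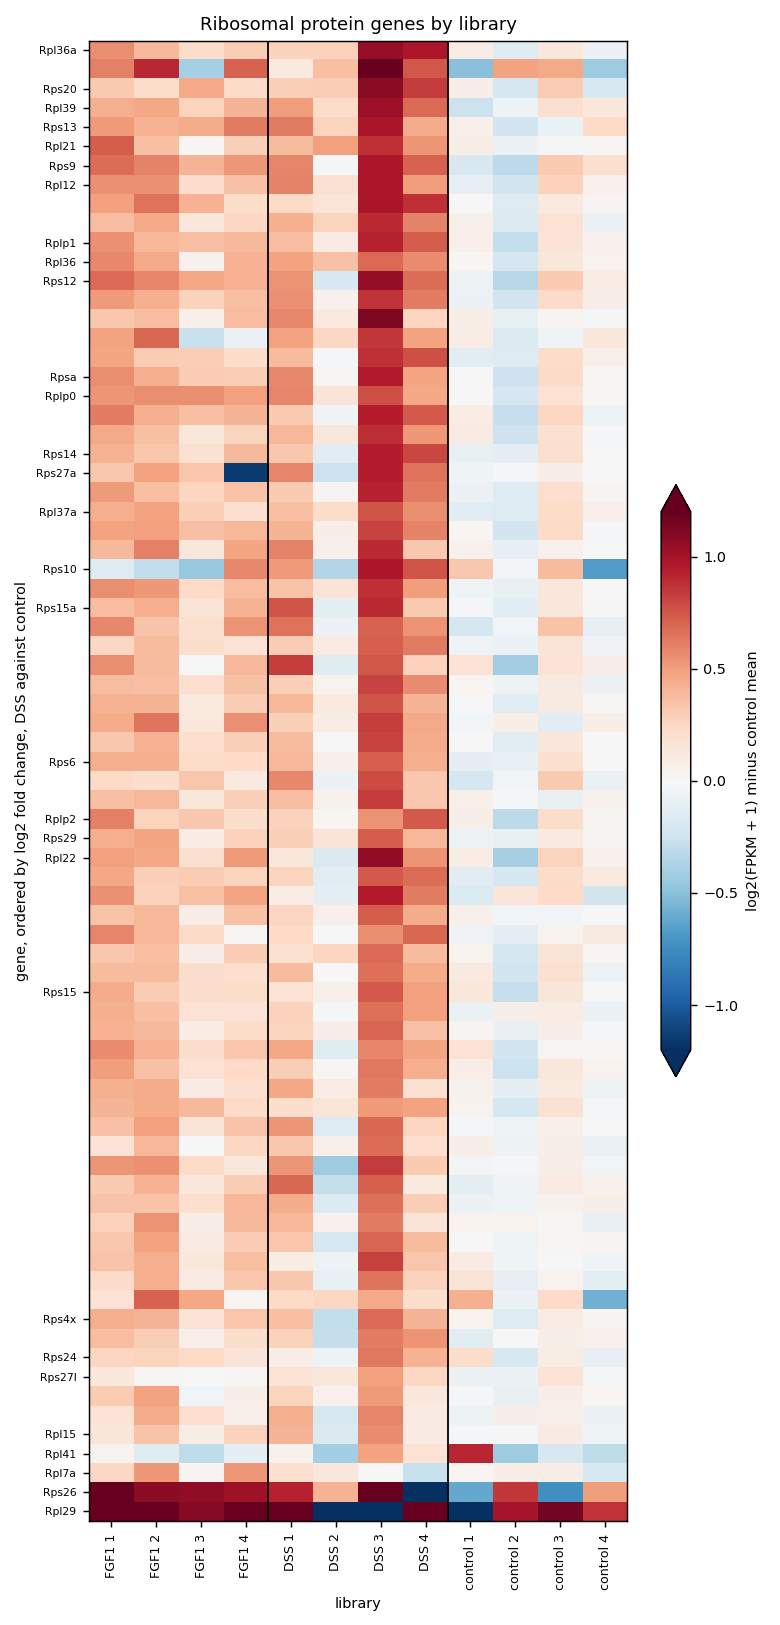
Each row is 1 of the 77 tested genes, with the main ones described in the text labelled, and each column is a library. Color gives log2(FPKM + 1) minus the gene's mean in control, and rows run from the highest to the lowest log2 fold change of DSS against control. The column of DSS 3 is red throughout nearly all rows, DSS 2 is close to control, and Rpl29, Rps26, Rps27a, Rps10, Rpl41 and Rpl7a break the pattern.

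In DSS against control, 10 ribosomal protein genes rose and none fell (limma, Benjamini-Hochberg adjusted p under 0.05, over all genes tested). That is 13.0% of the 77, beside a background of 2.23% of 12578 tested genes called higher and 10.1% called lower. The median member had a log2 fold change of 0.40, which is 1.32-fold, and the median of all genes tested was -0.07. Estimates were above 0 for 75 of the 77 members and for 40.3% of all genes tested. Of the 10 called, 7 belong to the large subunit and 3 to the small subunit, and the subunits' medians were 0.39 and 0.43. At an unadjusted p under 0.05, 50 members were higher and none lower, with 7.21% of all genes higher and 20.5% lower. The count depended on single libraries. It was 46 without DSS 2, none without DSS 3, DSS 4 or control 2, and 1 without control 1 or control 4. It was 5 without control 3, FGF1 2 or FGF1 4, and 6 without FGF1 1. Without both DSS 3 and DSS 4 it was none, and the median fell to 0.19. Single calls were also lost under alternatives in filter, scaling, design, transcripts or libraries. Rpl37a, Rpl12 and Rplp0 each lost theirs in 20 of 27, and Rpl36a and Rps20 in 16 of 27. Rpl21 lost its call in 10 of 27, Rpl36 in 9 of 27, Rps13 in 11 of 26 and Rpl39 in 10 of 26.

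Among the large subunit genes, Rpl36 had a single annotated transcript, so its value does not depend on how reads were divided between transcripts. It had 791, 727, 550.1 and 709 FPKM in FGF1, 742, 677, 849 and 788 FPKM in DSS, and 539.9, 459, 581 and 546 FPKM in control. All DSS libraries lay above all control libraries. In DSS against control the log2 fold change was 0.52 (SE 0.14, adjusted p = 0.0302, limma).
Rpl39, a small protein that lines the exit tunnel of the nascent chain, had 404, 411, 359 and 396 FPKM in FGF1, 420.1, 348, 605 and 477 FPKM in DSS, and 249, 286, 339.5 and 324 FPKM in control. The DSS and control libraries did not overlap, and the log2 fold change was 0.61 (SE 0.16, adjusted p = 0.0320, limma).
Rpl36a, which sits near the exit site for transfer RNA, had 402, 357, 317 and 335 FPKM in FGF1, 331, 329.9, 561 and 535 FPKM in DSS, and 290.1, 245, 298 and 259 FPKM in control. DSS 3 and DSS 4 stood far above the other two DSS libraries, which were still above every control library. Its log2 fold change was 0.64 (SE 0.18, adjusted p = 0.0397, limma).
Rpl37a, a zinc-finger protein of the large subunit, had 592, 536, 778 and 679.5 FPKM in DSS and 422, 413, 536 and 481 FPKM in control. The lowest DSS library and the highest control library were nearly level. Its log2 fold change was 0.47 (SE 0.14, adjusted p = 0.0471, limma).
Rpl12, which helps anchor the stalk, had 402, 301, 522 and 377 FPKM in DSS and 248, 226, 322 and 275 FPKM in control. DSS 2 lay below control 3, so the groups overlapped, and the log2 fold change was 0.56 (SE 0.17, adjusted p = 0.0486, limma).

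Rpl21 was called with the smallest adjusted p of the 10, but its rise came in large part from a transcript that keeps an intron. The gene had 123, 95.0, 74.8 and 89.9 FPKM in FGF1, 95.8, 104, 136 and 107 FPKM in DSS, and 77.8, 70.1, 72.5 and 74.5 FPKM in control. The log2 fold change was 0.57 (SE 0.15, adjusted p = 0.0276, limma) with no overlap between DSS and control. The retained-intron transcript Rpl21-204 had 25.9, 21.0, 23.1 and 11.2 FPKM in FGF1, 45.2, 28.9, 36.0 and 39.3 FPKM in DSS, and 13.7, 23.9, 11.6 and 9.90 FPKM in control. All 4 DSS libraries exceeded all control libraries. For the transcript the log2 fold change was 1.34 (SE 0.29, adjusted p = 0.0454 over 23992 transcripts, limma). The call was lost without any 1 of the DSS libraries, control 1, control 3, control 4, FGF1 1 or FGF1 2, with log2 fold changes from 1.19 to 1.45. Its adjusted p ran from 0.0307 to 0.257 (limma) over 17 alternatives chosen after seeing the data. With protein-coding transcripts alone, the gene's log2 fold change was 0.28 (adjusted p = 0.469, limma).

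The stalk of the large subunit, built of Rplp0, Rplp1 and Rplp2, recruits the translation factors that bind GTP. Rplp0 had 1245, 1270, 1272 and 1210 FPKM in FGF1, 1298, 957, 1477 and 1187 FPKM in DSS, and 867, 752, 971 and 876 FPKM in control. The FGF1 libraries stood close together above every control library, whereas DSS 2 fell inside the control range. Against control, the log2 fold change was 0.49 in DSS (SE 0.14, adjusted p = 0.0455, limma).
Rplp1 was the most abundant member per length, with 2149, 1937, 1892 and 1918 FPKM in FGF1, 1895, 1568, 2784 and 2425 FPKM in DSS, and 1532, 1207, 1646 and 1526 FPKM in control. Its log2 fold change of DSS against control, 0.53, did not pass (SE 0.19, adjusted p = 0.0833, limma).
Rplp2, the partner of Rplp1 in the stalk dimer, averaged 511 ± 65.7 FPKM in FGF1, 532 ± 113 FPKM in DSS and 401 ± 60.1 FPKM in control (SD, n = 4 each), and its log2 fold change of 0.39 did not pass (adjusted p = 0.154, limma).

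Rps13 and Rps20 were among the 3 small subunit genes called higher in DSS. Rps13, a protein at the face that meets the large subunit, had 340.3, 318, 324 and 368 FPKM in FGF1, 368, 287, 471 and 324 FPKM in DSS, and 249, 204, 226 and 281 FPKM in control. Every FGF1 and every DSS library lay above every control library. The log2 fold change of DSS against control was 0.58 (SE 0.15, adjusted p = 0.0304, limma).
Rps20, a protein of the small subunit's head, had 101, 94.8, 112 and 95.2 FPKM in FGF1, 99.1, 99.5, 173 and 146 FPKM in DSS, and 85.7, 70.4, 100.4 and 71.2 FPKM in control. DSS 3 and DSS 4 carried the difference, and DSS 1 and DSS 2 were just under control 3. Its log2 fold change was 0.62 (SE 0.18, adjusted p = 0.0440, limma).
Rpsa, which doubles as a laminin-binding protein, had log2 fold changes against control of 0.40 in FGF1 and 0.50 in DSS, and neither passed (adjusted p = 0.348 and 0.0895, limma).
Rps6, whose protein is phosphorylated by the S6 kinases downstream of mTORC1, averaged 835 ± 67.2 FPKM in FGF1, 888 ± 163 FPKM in DSS and 665 ± 66.0 FPKM in control (SD, n = 4 each). Its log2 fold change of DSS against control was 0.40 (adjusted p = 0.0906, limma). The X-linked Rps4x averaged 856 ± 70.3, 850.1 ± 220 and 678 ± 47.7 FPKM in the same order of groups, with 0.29 for DSS against control (adjusted p = 0.337, limma).

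In FGF1 against control, no member passed the adjusted threshold, although the libraries of the groups did not overlap for many members. The FGF1 libraries all lay above all control libraries for 42 of the 77 members, 54.5%, beside 3.66% of all 12578 genes tested. In none did they all lie below, beside a background of 6.61%. For DSS against control the same counts were 18 members above, 23.4%, beside a background of 3.67%, and none below, beside 13.3%. Both comparisons use the same control libraries, so they are not independent. The members also rose and fell together between libraries (median r 0.91), so these counts are not of separate observations. The median member had a log2 fold change of 0.33, or 1.26-fold, in FGF1 against control, the median of all genes tested was -0.04, and 74 members were above 0. At an unadjusted p under 0.05, 25 members were higher and none lower, with 4.02% of all genes higher and 9.91% lower. That fit took its spread from all groups together, DSS included. Fitted on the FGF1 and control libraries only, 63 members had an unadjusted p under 0.05 in either direction (limma). Leaving out single libraries, the count ran from 6 without control 2 to 53 without DSS 2. No member passed the adjusted threshold in any of these fits. The part of the DSS spread in these counts was not tested. Over all genes in the main fit, 0.00795% were called higher and 0.0716% lower in FGF1 against control, so calls were rare for any gene.

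The members with the largest estimates in FGF1 against control whose transcripts were present throughout were Rps9, Rps12 and Rplp0. Rps9, which helps the decoding site tell matched from mismatched transfer RNA, had 836, 794, 699 and 756 FPKM in FGF1 and 462, 421, 654 and 600.1 FPKM in control. Its log2 fold change was 0.55 (SE 0.20, adjusted p = 0.258, limma). Rps12, a protein of the small subunit's beak, had 629.5, 589.5, 542 and 525 FPKM in FGF1 and 376, 311, 486 and 416 FPKM in control, with a log2 fold change of 0.54 (SE 0.23, adjusted p = 0.318, limma). Rplp0, with the values given above, had 0.53 (SE 0.14, adjusted p = 0.155, limma). For all of these, no FGF1 library reached down to the highest control library.

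FGF1 and DSS did not differ detectably in any member. None was called higher, beside 0.0398% of all genes, and none lower, beside 0.0159%, and at an unadjusted p under 0.05 there was 1 member higher and 1 lower, beside 8.7% and 3.71% of all genes. The median log2 fold change was -0.07, against 0.05 for all genes tested. The members' median was 0.04 without DSS 3, -0.06 without DSS 4 and 0.11 without both, so among single libraries its sign turned only without DSS 3. All FGF1 libraries lay below all DSS libraries for 1 member, Rps27l, beside 1.83% of all genes, and above them for none, beside 4.45%. The member with the unadjusted p on the higher side was Rpl7a, and that on the lower side Rps27l. Both are named because so few members stood out, Rpl7a after its values were seen.

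Rps27l, a paralog of Rps27 that p53 is known to induce in human cells, had 169, 156, 154 and 157 FPKM in FGF1, 174, 169.6, 219 and 183 FPKM in DSS, and 147, 147, 173 and 153 FPKM in control. Every DSS library lay above every FGF1 library by a small margin. The log2 fold change of FGF1 against DSS was -0.22 (SE 0.10, adjusted p = 0.401, limma), and that of FGF1 against control was 0.04 (adjusted p = 0.913, limma). The other paralogs within the symbol rule were close to 0. Rpl39l, a testis form of Rpl39, stood between 0.0 and 0.326 FPKM over all 12 libraries. Rpl3l, a form of Rpl3 known from striated muscle, stood between 0.0 and 0.128 FPKM. These are the 2 members that failed the filter.

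Levels differed between members far more than between groups. Per length, mean FPKM over the 12 libraries ranged from 64.5 for Rps15a to 1873 for Rplp1. After Rplp1 came Rps15 at 1303, Rps14 at 1179, Rplp0 at 1115 and Rps29 at 1075 mean FPKM. Rps15 reaches toward the decoding site, Rps14 lies on the platform of the small subunit, and Rps29 is one of its smallest proteins. The lowest after Rps15a were Rpl21 at 93.3, Rps20 at 104, Rpl22 at 121 and Rpl15 at 151 mean FPKM. The transcripts that carried most of Rps15a, Rps20, Rpl22 and Rpl15 were 5179, 3706, 2051 and 1922 bases long, against a median of 833 bases for the main transcripts of the 77 members. Ribosomal protein genes have many processed copies in the genome, so reads of near-identical copies may have been divided between loci, and the order of levels is uncertain to that extent.

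**Figure D3:**
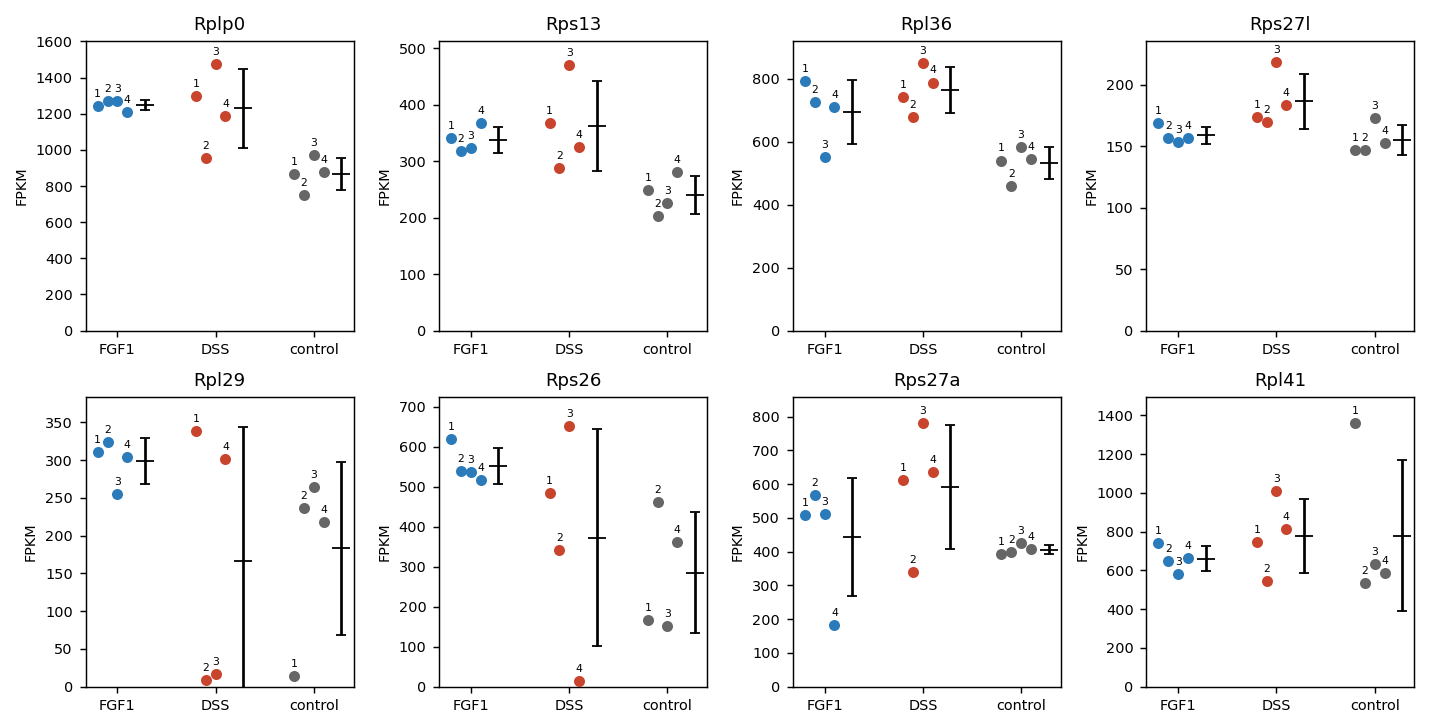
FPKM by library (numbered points) with mean ± SD (n = 4 each) for 8 members, where the axis stops at 0. The top row shows members present in every library, in which DSS 3 is the highest point. The bottom row shows members with single libraries far from the rest, such as Rpl29 at 9.0 FPKM in DSS 2 and Rpl41 at 1362 FPKM in control 1.

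Some members had libraries in which their transcripts almost vanished from the listing. Rpl29, a large subunit protein that mice can live without, had 311, 324, 255 and 304 FPKM in FGF1, 338, 9.0, 16.5 and 301 FPKM in DSS, and 13.9, 237, 264 and 218 FPKM in control. The 3 low values came from Rpl29-201, its main listed transcript.
Rps26, which lines the channel where the message leaves the small subunit, had 618, 538, 535 and 516 FPKM in FGF1, 483, 342, 651 and 14.5 FPKM in DSS, and 166, 461, 152 and 361 FPKM in control. These were the only members with a log2 fold change below 0 in DSS against control, at -0.88 (SE 1.18) for Rpl29 and -0.34 (SE 0.93) for Rps26. They also had the largest estimates in FGF1 against DSS, 2.20 and 1.45, and in FGF1 against control, 1.32 and 1.11, none of which passed (adjusted p from 0.483 to 0.677, limma).
Rps27a, a fusion of ubiquitin and a small subunit protein, had 509, 567, 512 and 183 FPKM in FGF1 and 611, 339, 779.7 and 636 FPKM in DSS, with the low value in FGF1 4. Rps10, at the entry of the message channel, had 319.9, 290.4, 259.5 and 532 FPKM in FGF1 and 507, 278, 697 and 603 FPKM in DSS. Their log2 fold changes of FGF1 against DSS were -0.48 and -0.55 (adjusted p = 0.595 and 0.513, limma), and that of Rps20 was -0.32 (adjusted p = 0.509, limma).
A listed 0 or near 0 in these data can be absence or a failed transcript assembly, and which applied was not tested. Rpl41, the smallest ribosomal protein, and Rpl7a were picked after their values were seen. Rpl41 had 1362 FPKM in control 1 against 537 to 632 in the other control libraries. Rpl7a averaged 317 ± 49.8 FPKM in FGF1, 254 ± 34.6 FPKM in DSS and 250.3 ± 21.2 FPKM in control (SD, n = 4 each), a log2 fold change of 0.02 in DSS against control. Their correlations with the median member were 0.34 and 0.13, against -0.01 for Rps26 and 0.05 for Rpl29.

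The annotation (GENCODE vM21, GRCm38) gave the 79 genes 483 transcripts, and 400 of them were listed. Protein-coding transcripts held 90.5% to 91.1% of the members' FPKM in FGF1, 89.5% to 91.4% in DSS and 89.95% to 91.2% in control. Retained-intron transcripts held 5.55% to 6.14%, 5.63% to 6.91% and 5.66% to 6.99% in the same order, so the groups overlapped. Transcripts marked for nonsense-mediated decay held 1.73% to 2.07% in FGF1, 1.48% to 1.88% in DSS and 1.35% to 1.79% in control. For 74 of the 77 tested members the leading transcript was protein-coding. Rpl3 and Rpl10a led with a retained-intron transcript and Rpl7a with a processed transcript. Tested one by one, 338 transcripts of members gave 1 call higher in DSS against control, Rpl21-204, and 1 lower, Rps24-202. Over all 23992 transcripts, 0.375% were called higher and 1.64% lower in this comparison. In each direction, 1 call among 338 was no more than that share over all transcripts. At an unadjusted p under 0.05 there were 76 of the 338 in this comparison (limma), beside 3914 of all 23992. No member transcript was called in FGF1 against DSS (limma), beside 0.00834% of all transcripts in each direction. At an unadjusted p under 0.05 there were 14 of the 338, beside 2039 of all 23992. None was called in FGF1 against control, beside 0.00417% called higher and 0.0292% lower. At an unadjusted p under 0.05 there were 46 of the 338 in that comparison, beside 2059 of all 23992.

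Rps24, a small subunit protein and one of the genes mutated in human Diamond-Blackfan anemia, ends in different ways through 2 very small exons on chromosome 14. The 18-base exon is chr14:24494052-24494069 and the 20-base exon is chr14:24495430-24495449, both on the plus strand of GRCm38. The sequences below show where the forms part. The last 15 bases of the shared upstream exon are in lower case, and the bases of the next exon are in capitals, up to the stop codon for Rps24-210.
Rps24-205, 18-base exon next: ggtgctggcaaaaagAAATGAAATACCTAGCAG
Rps24-202, 20-base exon next: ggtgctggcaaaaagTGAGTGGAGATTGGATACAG
Rps24-210, neither small exon: ggtgctggcaaaaagCCAAAGGAGTAG
The annotated stop codon begins at base 24494055 in Rps24-205, at base 24495430 in Rps24-202 and at base 24495784 in Rps24-210. All 3 are annotated as protein-coding, with different last codons.

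Rps24-202 had 5.50, 4.16, 7.21 and 11.2 FPKM in FGF1, 2.61, 3.08, 1.54 and 2.80 FPKM in DSS, and 7.42, 9.78, 5.77 and 8.40 FPKM in control. Every DSS library lay below every FGF1 and every control library. The log2 fold change was -1.33 in DSS against control (SE 0.27, adjusted p = 0.0335, limma) and 1.14 in FGF1 against DSS (SE 0.27, adjusted p = 0.279, limma). The call was lost without DSS 3, DSS 4 or any 1 of the control libraries, with log2 fold changes from -1.46 to -1.19. Over the same 17 alternatives its adjusted p ran from 0.0241 to 0.225 (limma).
Rps24-205, with the 18-base exon, had 58.9, 41.6, 64.0 and 28.7 FPKM in FGF1, 27.2, 50.9, 36.2 and 27.1 FPKM in DSS, and 78.2, 55.4, 67.9 and 70.2 FPKM in control. All DSS libraries lay below all control libraries, but the log2 fold change of -0.96 did not pass (SE 0.26, adjusted p = 0.0918, limma). The main form Rps24-210 averaged 268 ± 15.5 FPKM in FGF1, 289 ± 93.8 FPKM in DSS and 199.9 ± 25.4 FPKM in control (SD, n = 4 each), and its log2 fold change of DSS against control was 0.48 (adjusted p = 0.264, limma).
As a share of all Rps24 FPKM, transcripts with the 18-base exon made up 16.0%, 11.2%, 17.6% and 8.33% in FGF1, 8.31%, 17.2%, 7.57% and 6.57% in DSS, and 21.9%, 20.5%, 20.7% and 24.3% in control. All FGF1 and DSS libraries lay below all control libraries. In every library this share was that of Rps24-205 alone, so it restates that transcript's values against the gene's total. Every listed transcript with the 18-base exon also holds the 20-base exon. Transcripts with the 20-base exon made up 22.8%, 19.5%, 29.5% and 14.8% in FGF1, 25.1%, 24.5%, 14.8% and 9.93% in DSS, and 32.0%, 28.2%, 29.5% and 30.1% in control. For that share DSS again lay below control, but FGF1 3 lay above control 2, so FGF1 and control overlapped. Both shares were chosen after the transcripts' values were seen, so they have no test. The gene's summed value had a log2 fold change of 0.27 in DSS against control (adjusted p = 0.282, limma).

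**Figure D4:**
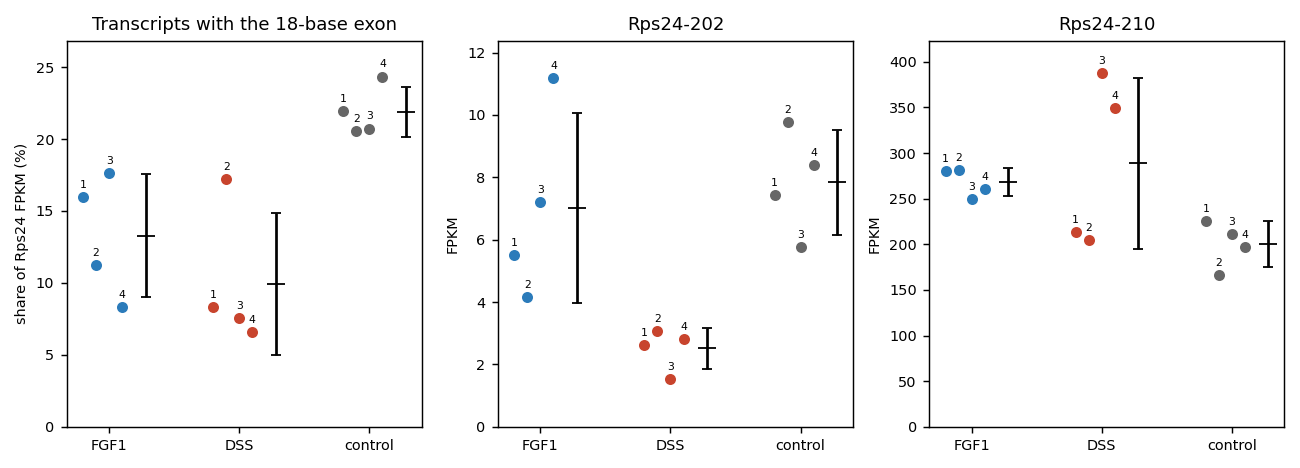
Left, the share of Rps24 FPKM in transcripts with the 18-base exon. Middle and right, FPKM of Rps24-202 and of the main form Rps24-210. Points are numbered libraries and bars are mean ± SD (n = 4 each). The control shares lie between 20.5% and 24.3%, above the DSS shares of 6.57% to 17.2% and the FGF1 shares of 8.33% to 17.6%.

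Genes that work with the ribosomal proteins were set beside them. Over all genes tested, 2.23% were called higher and 10.1% lower in DSS against control, with 7.21% and 20.5% at an unadjusted p under 0.05. Over the 292 tested entries of the lists, 7 were called higher and 6 lower, with 31 and 14 at an unadjusted p under 0.05 (limma). Entries were added over the lists, and Sesn1 is in both the mTORC1 list and the p53 list. Of 7 ribosomal proteins whose symbols fall outside the rule, none was called in DSS against control (limma) and 2 were higher at an unadjusted p under 0.05, with a median log2 fold change of 0.24. Fau, a ubiquitin-like fusion with a small subunit protein, had 0.57 (adjusted p = 0.0927, limma), and Rack1, a scaffold on the small subunit, had 0.21 (adjusted p = 0.448, limma). Of 18 translation factors and other genes with TOP-type messages, Btf3, a nascent-chain binding factor, rose by 0.49 (SE 0.13, adjusted p = 0.0299, limma). Vim, a filament protein of mesenchymal cells in the same list, fell by 1.81 on the log2 scale (adjusted p = 0.00606, limma). The list's median was 0.22.

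In DSS against control, genes that build ribosomes had medians between that of the ribosomal protein genes, 0.40, and that of all genes tested, -0.07. Of 69 tested ribosome assembly and rRNA processing genes, none was called higher (5 at an unadjusted p under 0.05, limma) and Utp20, an assembly factor of the small subunit, was lower by -1.01 (adjusted p = 0.00365, limma), with a median of 0.06. Of 32 RNA polymerase I and III genes none was called (1 higher and none lower at an unadjusted p under 0.05, limma), with a median of -0.04. Of 77 mitochondrial ribosomal protein genes, Mrpl2 (log2 fold change 0.33) and Mrpl33 (0.60) were called higher (adjusted p = 0.0322 and 0.0324, limma), with a median of 0.07. At an unadjusted p under 0.05, 9 of these were higher and none lower (limma). Estimates were above 0 for 46 of the 69 assembly genes, 13 of the 32 polymerase genes and 55 of the 77 mitochondrial genes. Over all genes tested that share was 40.3%.
Other initiation and release factors numbered 38, with Eif2s2, a subunit of the factor that brings the initiator transfer RNA, higher by 0.72 (adjusted p = 0.00794, limma). Eif4e, which binds the cap of the message, was lower by -0.97 (adjusted p = 0.0147, limma), and the median was 0.01. In the mTORC1 list of 35 tested genes, Eif4ebp3, an inhibitor of Eif4e, rose by 0.92 (adjusted p = 0.00484, limma) and Max, the partner of Myc, by 0.45 (adjusted p = 0.0388, limma), with a median of 0.02.
In the p53 and ribosome stress list of 16 tested genes, Cdkn1a, a cell cycle inhibitor, rose by 0.56 (adjusted p = 0.0294, limma). Phlda3 (-1.42), Map3k20 (-0.92) and Zmat3 (-0.60) fell (adjusted p from 0.0194 to 0.0342, limma), and the median was 0.08. In FGF1 against DSS and in FGF1 against control, none of the 292 tested entries in these 8 lists was called (limma). At an unadjusted p under 0.05 there were 8 higher and 15 lower in FGF1 against DSS, beside 8.7% and 3.71% of all genes. In FGF1 against control there were 9 higher and 7 lower, beside 4.02% and 9.91% of all genes. The list medians in FGF1 against control were 0.27 for ribosomal proteins outside the rule, 0.26 for TOP-type messages and 0.11 for the mTORC1 list. The other lists' medians lay between -0.07 and 0.03.

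**Figure D5:**
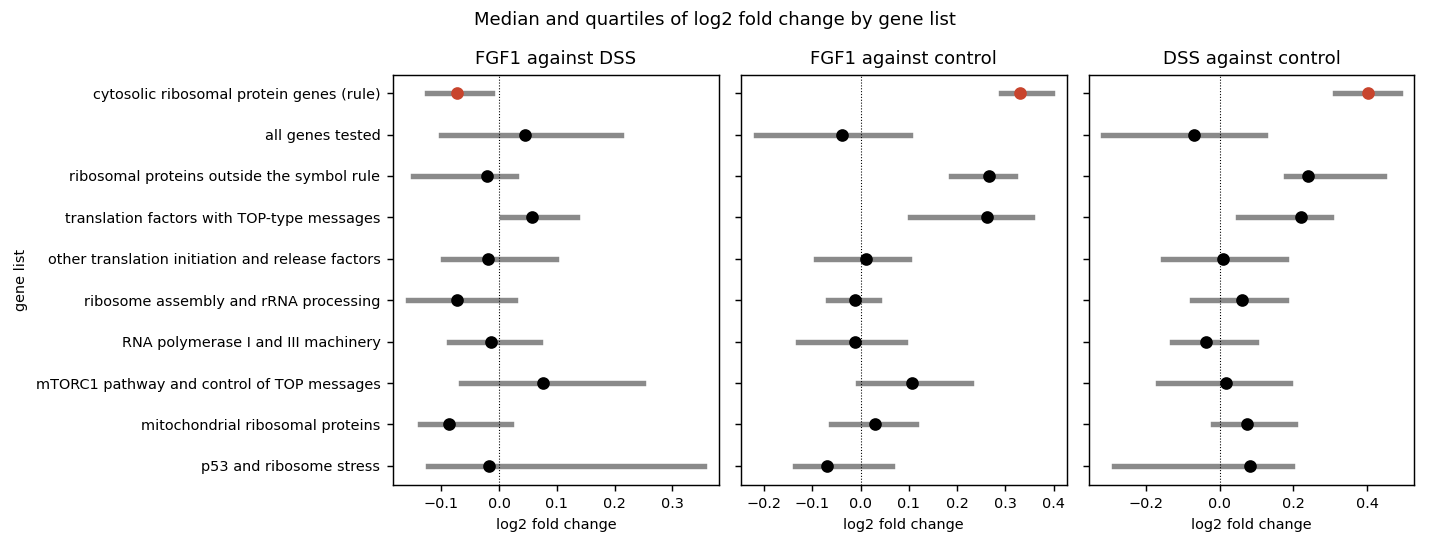
Median (point) and quartiles (bar) of the log2 fold change over tested genes in each list, for the 3 comparisons, with the 77 ribosomal protein genes in red. In DSS against control and FGF1 against control the members' medians, 0.40 and 0.33, are the rightmost points. In FGF1 against DSS the members' median is -0.07.

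Other properties of the libraries also differed between the groups. In DSS against control, 13 of 14 fibroblast and matrix markers, 9 of 10 endothelial markers, 6 of 9 macrophage markers and 4 of 7 B and plasma cell markers were called lower (limma). So were 4 of 10 goblet cell markers, 4 of 16 smooth muscle markers and 1 of 11 enteric neuron and glia markers, beside 10.1% of all genes. At an unadjusted p under 0.05, all 16 smooth muscle markers and 9 of the enteric neuron and glia markers were lower, beside 20.5% of all genes. Summed FPKM of the smooth muscle markers lay between 1818 and 9854 in FGF1, 1054 and 3044 in DSS, and 3788 and 11538 in control. That of the fibroblast markers lay between 200.3 and 486 in FGF1, 33.2 and 190.2 in DSS, and 426 and 667 in control. The endothelial markers summed to 17.5 to 34.1 FPKM in FGF1, 4.67 to 28.9 in DSS and 48.7 to 62.6 in control. The macrophage markers summed to 48.7 to 125 FPKM in FGF1, 31.5 to 74.5 in DSS and 100.4 to 154 in control. For B and plasma cells the sums lay between 130.1 and 504 FPKM in FGF1, 51.3 and 113 in DSS, and 822 and 2381 in control. For goblet cells, which secrete mucus, they lay between 6720 and 9235 FPKM in FGF1, 5437 and 6732 in DSS, and 7757 and 10903 in control. Colonocyte markers, 14 of 14 tested, gave 2 calls higher and goblet markers 1, beside 2.23% of all genes. No marker in these lists was at 0 in all libraries of a group. Of the 14 tested markers of crypt base and dividing cells, none was called in any comparison (limma). Their median log2 fold change was -0.14 in DSS against control, -0.13 in FGF1 against DSS and -0.31 in FGF1 against control. At an unadjusted p under 0.05, none differed in DSS against control, and 1 was higher and 3 lower in FGF1 against control. DSS 3 and DSS 4 had the lowest fibroblast scores (mean log2(FPKM + 1) of the tested markers) of the 12 libraries, 1.99 and 1.55. They also had the lowest endothelial scores, 0.56 and 0.46. Leaving out either of them left no member called, and so did leaving out control 2, whose scores were 4.54 and 2.21. DSS 2, with its member share in the control range, had 2.84 and 1.11, against 4.54 to 5.11 and 2.09 to 2.23 in control. Control 3 had the highest smooth muscle score of all libraries, 8.84, and the highest member share in control, 10.3%. Neutrophil scores, from the 2 tested of 11 listed markers, were 1.12 to 2.67 in FGF1, 5.56 in DSS 1 and 4.05 in DSS 3, against 0.87 to 1.11 in the other DSS libraries and 0.05 to 1.18 in control. Ngp was at 0 in all FGF1 libraries, and Cxcr2, Mpo, Ngp and Retnlg were at 0 in all control libraries. Scores of the list of erythroid and other tissue markers were 2.09 to 2.84 in FGF1, 4.82 in DSS 1 and 4.49 in DSS 3, against 2.43 to 2.87 in the other DSS libraries and 2.47 to 3.40 in control, with Cela3b and Prss2 at 0 in all DSS and control libraries. When the fit included the smooth muscle score, no member passed in DSS against control, and over all genes 0.0318% were called higher and 0.199% lower, so calls were rare for any gene. At an unadjusted p under 0.05, 12 members were higher and none lower, beside 4.62% and 9.89% of all genes, and the members' median was 0.35. The part of the other markers in the result was not tested. The members' main transcripts were also short. Among other tested genes, the median log2 fold change of DSS against control was 0.05 for 1372 genes with a main transcript under 1000 bases and -0.08 for 11064 longer genes. In FGF1 against control these medians were 0.02 and -0.05. Over the 12436 other genes, the log2 fold change had a Spearman correlation with length of -0.18 in DSS against control and -0.12 in FGF1 against control, given as a description across genes. The part of length in the result was not tested.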

How the data were processed

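Per the submitters' processing notes, cutadapt 1.9, HISAT2 2.0.4, StringTie 1.3.4d and edgeR were used with build GRCm38, with no role or order given. The authors deposited FPKM per transcript, repeated on each transcript structure event. The table lists only transcripts that take part in an event, and an unlisted transcript was set to 0. A gene's value is the sum over its distinct transcripts. The deposited FPKM give no counts and the depth per library is not given in them. Low values did not fall on whole reads (18.2% to 22.0% within 0.05 of a whole read, 10% by chance), so no count model was run.

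Genes with at least 1 FPKM in at least 4 libraries entered limma 3.58.1 in R 4.3.3, on log2(FPKM + 1) with a mean-variance trend, over all 3 groups and 12578 genes, and a call is a Benjamini-Hochberg adjusted p under 0.05. Fold changes are on that scale and understate those of low genes. The fit was tested on simulated data. Library totals of listed FPKM lay between 360190 and 404141, and no pair of libraries shared more than 0.0134% of its nonzero values.

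Members named are the called ones by adjusted p (up to 10 in each direction), the 5 largest changes where under 5 were called, the 5 highest and 5 lowest in mean FPKM, the stalk genes, Rpsa, Rps4x, Rps6, the listed paralogs and those that failed the filter. Related lists name up to 4 called genes. One called member is counted but not reported here. The members and lists were chosen with earlier results of these data known. Symbols and coordinates are from GENCODE vM21 and promoters from RefSeq.

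Alternatives varied the pseudocount, filter, scaling, design, transcripts summed, symbol rule and libraries. Replicate numbers recur across groups, but no label ties them to a shared batch.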

Additional observations from a re-analysis of the deposited data

Results flagged for a closer look

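In FGF1 4, Rps27a had 183 FPKM, while the other FGF1 libraries had 509 to 567 FPKM. Both of its main coding transcripts were low there, Rps27a-201 at 88.1 FPKM and Rps27a-202 at 18.05 FPKM, against 228 to 279 and 179 to 262 FPKM in the other FGF1 libraries. In control 1, Rpl41 had 1362 FPKM, while the other control libraries had 537 to 632 FPKM. The gap to the nearest library exceeded the 95% limit for an outlier in these groups and in 4 more with smaller gaps. Rpl35a had 486 FPKM in FGF1 3, against 539.6 to 544 in the other FGF1 libraries. Rpl17 had 176 FPKM in DSS 3, against 147 to 152 in the other DSS libraries. In control 3, Rpl10a had 429 FPKM and Rpl38 had 466 FPKM, against 396 to 401 and 399.8 to 408 in the other control libraries. These are 6 of 237 groups of 4 checked, over the 77 tested members, their sum and their retained-intron share, and chance gives about 1 such value in 20 groups.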

How the results depend on the processing

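The count of ribosomal protein genes called higher in DSS against control was 10. It was 2 with the 2 groups only, with no filter on low genes, from start events and from each gene's top transcript. It was 6 with equal totals and without control 3 and FGF1 3, 4 from protein-coding transcripts, 0 with the smooth muscle covariate and 0 without DSS 3 and DSS 4. Leaving out 1 library at a time gave 0 to 46. Under the replicate block it was 2. Same-numbered libraries deviated together in 3 of 12 pairs (correlation over 0.1, range -0.22 to 0.40). Differently numbered pairs were not set beside them, so these correlations cannot decide whether the numbers mark pairs. No label says whether they mark a batch, and the main fit did not pair them. Other pseudocounts, the mean filter, no trend and the wider symbol rule gave 9 or 10, and median-of-ratios scaling gave 15. No member was called lower, or in either FGF1 comparison, under any alternative run. The 2 member transcripts called in DSS against control became 1 with a pseudocount of 0.1, 0 under the replicate block, 0 without DSS 3 and DSS 4, and 0 to 4 with 1 library left out (alternatives chosen after seeing the data).

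The median log2 fold change stayed above 0 in DSS against control (0.19 to 0.55, lowest at 0.19 without DSS 3 and DSS 4) and in FGF1 against control (0.29 to 0.42). In FGF1 against DSS it ran from -0.20 to 0.11. Among the members named, directions turned in FGF1 against DSS for Rps10 from the top transcript (0.19) and for Rps20 from start events (0.079) and without DSS 3 and DSS 4 (0.016). The cause was not tested. The depth of these libraries is not given, so how far counting error limits low transcripts such as Rps24-202 is unknown.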
